A study of Mus musculus with 36 samples.

Results

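The comparison of Zfp266 knockout (KO) with control (Wt) cells at day 3 of reprogramming was examined across all genes, to describe the earliest response to loss of the gene once reprogramming had been switched on. The members were fixed by the sample labels. They were 6 of the 36 libraries of the series, 3 labelled Control and 3 labelled Zfp266-KO, with counts for 21442 genes. The series followed Zfp266 KO and Wt cells as embryonic fibroblasts (MEFs), at days 3, 5 and 7 of reprogramming, as induced pluripotent stem (iPS) cells and as embryonic stem cells (ESCs), with 3 libraries for each of 12 groups. All 6 day 3 libraries came from Cas9 TNG MKOS MEFs. Those cells express Cas9 from the Rosa26 locus under an EF1α promoter, carry a doxycycline-inducible cassette of Myc, Klf4, Oct4 and Sox2 linked to an mOrange reporter, and derive from chimeric embryos made with one engineered ESC line. The labels give strain 129 and, for the MEF libraries, fibroblasts of E12.5 embryos (mid-gestation). For reprogramming, the Cas9 TNG MKOS MEFs were seeded as a small minority among wild-type MEFs, so that only the minority could turn on the cassette. A lentivirus carried a non-targeting single guide RNA into the Wt cells and a Zfp266 guide into the KO cells, 24 h before reprogramming medium with 300 ng/ml doxycycline and 10 µg/ml vitamin C was added. Cells positive for mOrange were sorted at day 3, and their polyadenylated RNA was sequenced. The KO libraries were therefore populations of edited cells and not clones. In its KO MEF samples, the study estimated from Zfp266 cDNA that most copies carried out-of-frame insertions or deletions. The share of unedited cells in the day 3 libraries was not measured here. Fewer cells of a type and less RNA per cell cannot be told apart in such bulk samples.

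ZFP266 is a member of the KRAB zinc finger proteins, a large family of DNA-binding proteins that usually repress transcription. Their KRAB domain recruits the corepressor TRIM28 and, through it, the histone methyltransferase SETDB1, and many family members bind transposable elements. In the first days of reprogramming, fibroblasts that express the factors divide quickly, lose mesenchymal gene expression and gain epithelial gene expression, whereas most of the endogenous pluripotency network is turned on later.

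The guide that the study used for its detailed Zfp266 experiments is shown because the reads over it bear on what the counts can say about the edit. Whether the same guide was used for these libraries is not stated. Its 19 bases are in lower case and the genomic PAM, read on the strand of the gene, is in capitals.
Zfp266 sgR3: cagaagaatctataccgagAGG
The guide matched the minus strand at chr9:20505091-20505109 (GRCm38), in exon 6 of 9 of the transcripts Zfp266-201 and Zfp266-202, inside the coding sequence. A cut there leaves small insertions and deletions in an otherwise transcribed gene, so counts per gene do not measure the edit. Zfp266 (ENSMUSG00000060510, chr9:20495068-20521417, minus strand) had normalised counts of 1417, 1598 and 1579.7 in Wt and 1824, 2049.5 and 1856 in KO for replicates 1 to 3 of each group. All KO libraries lay above all Wt libraries, and the difference passed the test (log2FC 0.32 ± 0.08 (SE), FDR = 0.00883), so the targeted gene's mRNA was higher and not lower in the libraries labelled KO. The call was lost without KO replicate 2 or Wt replicate 1 (highest FDR 0.343). The same contrast gave log2FC 0.12, FDR = 0.609 in MEFs and log2FC 0.19, FDR = 0.124 at day 5.

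The 6 libraries held 31773575 to 35692522 counted reads each, and 19909 to 20298 genes were detected per library. No gene exceeded 0.806% of a library's reads, and 3 reads, taken as the floor of detection, corresponded to 2.51 to 3.0 normalised counts. Reads carried no molecular identifiers, so that floor covers counting error only. The fibroblast genes Col1a1, Col1a2 and Thy1 and the 4 reprogramming factors were expressed in every library. No listed marker of another cell type passed the main test or that of edgeR (1 endothelial marker had an unadjusted p below 0.05), although few could be tested at all: 5 endothelial, 3 macrophage and blood, 0 erythroid, 6 neuronal, 3 neural crest and 1 skeletal muscle marker could be tested. Summed endothelial markers were 449 to 588 in Wt and 531 to 645 in KO, with Cdh5 and Emcn near 0, and summed macrophage and blood markers were 125 to 246 in Wt and 104 to 262 in KO. Summed neuronal markers were higher, at 31445 to 34530 in Wt and 29817 to 33797 in KO, almost all from Stmn2 and Tubb3. The corresponding ranges were 748 to 1364 and 670 to 1022 for neural crest and 124 to 322 and 106 to 176 for skeletal muscle markers. In each list the ranges of Wt and KO overlapped.

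The response at day 3 was small and leaned towards higher expression in KO. Of 16031 genes that could be tested in a DESeq2 fit of all 36 libraries (the main test), 79 passed the false discovery rate (FDR) threshold of 0.05 (0.493% of genes tested), of which 60 were up-regulated in KO (0.374%) and 19 down-regulated (0.119%). Differentially expressed genes (DEGs), which also needed an absolute log2 fold change (log2FC) above 1, numbered 26 (0.162%). Of these, 19 were higher in KO, a share of 73.1%. The exact binomial 95% interval, 52.2% to 88.4%, covers counting error only. It takes the DEGs as independent, which neighbouring genes such as Snx20 and Nod2 may not be. With 1 day 3 library left out, the share ran from 41.2% to 100%. The remaining calls were mostly small consistent shifts: in 52 genes, 41 higher and 11 lower, the log2FC was at most 1 and the KO libraries did not overlap the Wt libraries. In all, the groups did not overlap for 78 of the 79 genes, whereas every KO library lay above every Wt library for 7.87% of all tested genes and below for 8.29%. Non-overlap was part of what made a gene pass and is not separate evidence. The median log2FC over all tested genes was 0.00, with 49.7% above 0. The study calls the RNA-seq samples of a group independent without saying whether cultures, transductions or sorts were separate, so these tests measure the spread between the libraries, part of which may be technical. Exons of 17 of the 79 genes overlap a gene on the other strand and those of 6 a gene on the same strand.

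**Figure D1:**
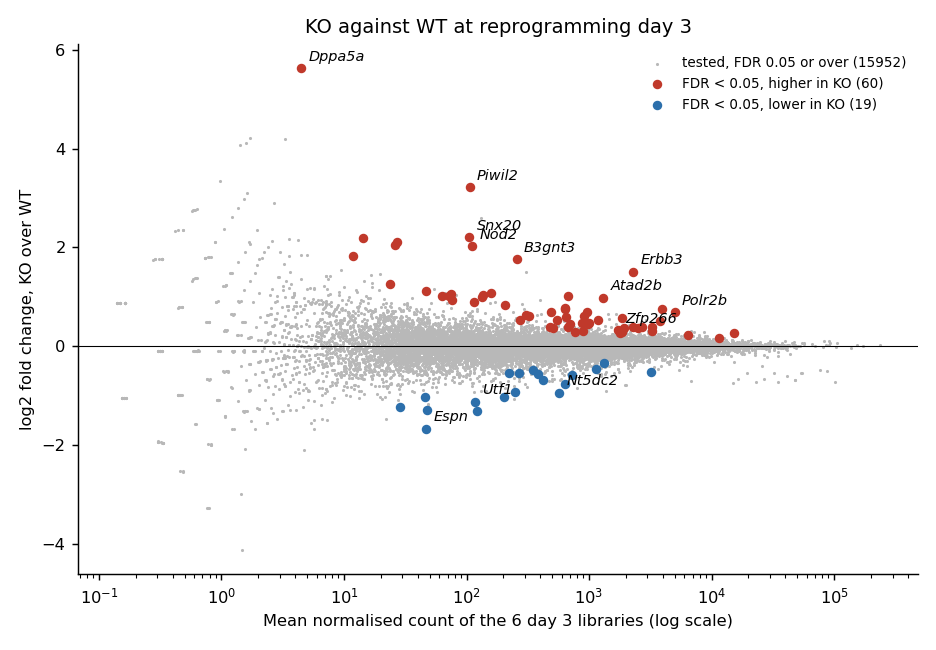
Mean normalised count of the 6 day 3 libraries (x axis, log scale) against the log2 fold change of KO over Wt (y axis, linear scale) for each gene tested, with genes past FDR 0.05 in red (60 higher in KO) and blue (19 lower in KO). Polr2b, Atad2b and Erbb3 stood out at high counts, Piwil2, Snx20 and Nod2 at about 100 counts, and Dppa5a lay at the left edge of the called genes with a mean near the floor of detection.

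How many small shifts were called depended strongly on the fit. In the fit of the 6 day 3 libraries alone, 311 of 14072 genes passed (2.21%), 146 of them higher (1.04%) and 165 lower in KO (1.17%). With the replicate number as a block, 556 of 13666 genes passed (4.07%), 213 higher (1.56%) and 343 lower in KO (2.51%). Over all genes past FDR, the lean towards higher expression was therefore seen in neither fit of the 6 libraries by DESeq2. By edgeR, 37 genes were higher and 15 lower in the 6 libraries without the block, and 481 higher and 759 lower with it. In both DESeq2 fits of the 6 libraries 67 of the 79 genes were called again and 7 more received no FDR, and all 79 kept the sign of their log2FC. The number of DEGs was 24 and 23 in the same DESeq2 fits without and with the block. Of these DEGs, 18 (75%) and 16 (69.6%) were higher in KO, so the lean was kept among DEGs. The quasi-likelihood test of edgeR on all libraries called 30 genes, 28 of them among the 79. Leaving out KO replicate 2 reduced the calls to 31, the DEGs to 8 and the small consistent shifts to 23. Leaving out Wt replicate 3 reduced them to 42, 14 and 28. Without Wt replicate 2 there were 16 DEGs, and without Wt replicate 1 there were 34 DEGs, of which only 14 were higher in KO (41.2%). A core of 24 genes, 21 higher and 3 lower in KO, passed in each of the 6 fits that left out 1 day 3 library.

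The lowest FDR belonged to Polr2b, which encodes a subunit of the catalytic core of RNA polymerase II (ENSMUSG00000029250, chr5:77310147-77349324, plus strand). Its normalised counts were 3780.3, 3959 and 3736 in Wt and 5985, 6293 and 6192 in KO. Every KO library was far above every Wt library, and the spread within each group was small (log2FC 0.69 ± 0.06 (SE), FDR = 2.08e-26). The calls for Polr2b held in all leave-one-out fits. Of 13 subunit genes of RNA polymerase II tested, Polr2b was the single gene that passed, and the median log2FC of that list was 0.02. Polr2a, the gene of the largest subunit, had 7407, 7684 and 7455 in Wt and 7706, 8190.1 and 7692 in KO. The KO libraries of Polr2a also lay above the Wt libraries, but by much less (log2FC 0.07, FDR = 1). Exons of Polr2b overlap the gene Igfbp7 on the other strand. Whether the authors' counting used strand is not stated, and Igfbp7 itself had a log2FC of -0.06.

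Atad2b, Kdm5b, Dpy30, Jade2 and Taf12, which act in chromatin or transcription, also rose. Here and below, genes described together that belong to no named list were gathered from the called genes by what they are known to do, and no such group was tested. Atad2b, a bromodomain ATPase (ENSMUSG00000052812, chr12:4917353-5047394, plus strand), had normalised counts of 832, 964 and 848 in Wt and 1409.6, 2019 and 1786 in KO. Its groups were well separated, with KO replicate 1 the lowest of the KO libraries (log2FC 0.98 ± 0.12 (SE), FDR = 4.02e-13). Kdm5b, a demethylase of histone H3 lysine 4, had 2229, 2139 and 2219 in Wt and 2789, 2889 and 2782 in KO. The difference for Kdm5b was small but larger than the spread in either group (log2FC 0.36 ± 0.07 (SE), FDR = 1.89e-04). Both calls held without any single library. Dpy30, a core subunit of the methyltransferase complexes that act on the same lysine, had 2849, 2815 and 2823 in Wt and 3515, 3653 and 3939 in KO (log2FC 0.39 ± 0.08 (SE), FDR = 0.00249). Jade2, a subunit of the HBO1 histone acetyltransferase complex, had 532, 527 and 513 in Wt and 759.9, 819 and 773 in KO (log2FC 0.58 ± 0.14 (SE), FDR = 0.00722). Dpy30 lost its call without KO replicate 3 (FDR 0.0698), and Jade2 without KO replicate 2 or Wt replicate 3 (up to 0.152). Taf12, a subunit of the general transcription factor TFIID, passed narrowly (log2FC 0.31, FDR = 0.0432) and was lost whichever day 3 library was left out. In all of these genes the groups did not overlap.

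Piwil2, Zscan10, Lncenc1 and 1700061G19Rik rose from lower levels. Piwil2, a PIWI protein that binds piRNAs in the male germline (ENSMUSG00000033644, chr14:70372477-70429383, minus strand), had normalised counts of 33, 14 and 14.5 in Wt and 220.5, 191 and 165 in KO. Wt replicate 1 was the highest of the Wt libraries, yet the lowest KO library was still several times higher (log2FC 3.22 ± 0.30 (SE), FDR = 7.93e-23). The call held in all leave-one-out fits. Of 20 piRNA and germline genes tested, Piwil2 was the single one that passed, the median log2FC was -0.13, and Tdrd1, Tdrd7 and Ddx4, which act with PIWI proteins, had log2FC of 0.06, -0.04 and 0.22 with overlapping groups. Zscan10, a zinc finger factor of pluripotent cells, had 151, 156 and 136 in Wt and 240.5, 301 and 252 in KO and a clear gap between the groups (log2FC 0.84 ± 0.15 (SE), FDR = 1.01e-05). Lncenc1, a long non-coding RNA of ESCs, had 88.9, 95 and 122 in Wt and 202, 226 and 217 in KO (log2FC 1.07 ± 0.21 (SE), FDR = 1.42e-04). The uncharacterised 1700061G19Rik had 9.17, 13 and 8.72 in Wt and 40.1, 50.2 and 41.8 in KO (log2FC 2.10 ± 0.40 (SE), FDR = 1.21e-04). These 3 genes passed without any single library.

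Gdf3, a TGFβ family ligand of pluripotent cells, had normalised counts of 2.75, 12 and 0.969 in Wt and 15.9, 18.8 and 20.4 in KO. Wt replicate 2 approached the KO libraries while the other Wt libraries were near the floor, and the call (log2FC 1.83 ± 0.44 (SE), FDR = 0.011) was lost without KO replicate 2, KO replicate 3, Wt replicate 1 or Wt replicate 3 (highest FDR 0.437). Dppa5a, a pluripotency-associated RNA-binding protein, had no read in any Wt library and 0.835, 2.69 and 23.3 normalised counts in KO. KO replicates 1 and 2 were under or at the floor of 3 reads, so the FDR of 0.00723 rested on KO replicate 3, and no fold is given. The call was lost without KO replicate 3, Wt replicate 1, Wt replicate 2 or Wt replicate 3 (highest FDR 0.655). Utf1, a chromatin factor of pluripotent cells, moved the other way, with 132, 126 and 227 in Wt and 55.9, 57.3 and 109.9 in KO. Both groups were highest in replicate 3 (log2FC -1.12 ± 0.27 (SE), FDR = 0.0114), and the call was lost without KO replicate 1, KO replicate 2 or Wt replicate 3 (highest FDR 0.531).

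The calls of the pluripotency list went in both directions, while most of its log2FC were above 0. Of 25 genes, all tested, 2 passed as higher (Gdf3 and Dppa5a) and 1 as lower (Utf1), beside 0.374% and 0.119% of all genes. KO lay above Wt in every comparison for 7 (28%) and below for 2 (8%), against 7.87% and 8.29% of all tested genes. A log2FC above 0 was found for 22 (88%), against 49.7%. By edgeR with all libraries 0 of the 25 passed. In the main test 11 had an unadjusted p below 0.05, against 1206 of the 16031 genes tested. The median log2FC was 0.46, or 0.37 over the 15 genes with a mean of at least 10 normalised counts, against 0.00 over all genes tested. With the replicate block, Sall4 (log2FC 0.52, FDR = 0.00731), Zfp296 (log2FC 0.37, FDR = 0.00451) and Zfp42 (log2FC 0.58, FDR = 0.0495) also passed, and all 3 passed in the 6 libraries without the block too (FDR 0.0204, 0.0137 and 0.0207). Sall4 had 438, 303 and 334 in Wt and 546, 542 and 442 in KO, and its Wt and KO libraries did not overlap. Some genes of the late network were at or near the floor. Nanog had 2.75, 5 and 7.75 in Wt and 7.52, 3.58 and 11.7 in KO, Dppa2 0.917, 0 and 0 in Wt and 2.51, 0.896 and 1.94 in KO and Tcl1 0.917, 0 and 3.88 in Wt and 0.835, 0 and 6.81 in KO. For these genes a difference was not detectable at this depth. Esrrb, an orphan nuclear receptor of the network, was measured above the floor, at 69.7, 45 and 67.8 in Wt and 68.5, 82.4 and 102 in KO, and its groups overlapped (log2FC 0.46, FDR = 0.38). Pou5f1 counts, which sum the endogenous gene and the transgene, overlapped between groups at 39976, 42926 and 43983 in Wt and 40927, 41213 and 46266 in KO.

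Erbb3, Rps6ka1 and Inpp5d, which act in signalling, rose as well. Erbb3, a receptor of the epidermal growth factor receptor family that binds neuregulins (ENSMUSG00000018166, chr10:128567523-128589652, minus strand), had normalised counts of 1331, 1039 and 1196 in Wt and 3278, 3434 and 3429.8 in KO. The lowest KO library was far above the highest Wt library (log2FC 1.51 ± 0.23 (SE), FDR = 1.03e-07), and the call held in all leave-one-out fits. Among the 10 tested ERBB receptors and ligands no other gene passed in the main test, and the median log2FC of that list was -0.08. Hbegf, another ligand, was lower in KO without overlap, at 697, 464 and 683 in Wt and 428, 320 and 375 in KO. It missed the main test (log2FC -0.72, FDR = 0.709). In the 6 libraries it was called without and with the replicate block (FDR = 3.97e-04 and 2.12e-06). The ligand Nrg1 had 346, 275 and 287 in Wt and 433, 389 and 346 in KO (log2FC 0.36, FDR = 1), and the receptor Egfr 1095, 989 and 1186 in Wt and 969.5, 955 and 986 in KO (log2FC -0.17, FDR = 1). Neither pair of groups overlapped and neither passed. Rps6ka1, a kinase downstream of ERK, had 511, 393 and 506 in Wt and 811, 846 and 766 in KO (log2FC 0.78 ± 0.13 (SE), FDR = 2.28e-06). Inpp5d, the lipid phosphatase SHIP1, had 109, 76 and 81.4 in Wt and 177, 189 and 179.9 in KO (log2FC 1.03 ± 0.22 (SE), FDR = 0.0018). Both held without any single library, and exons of Rps6ka1 overlap the gene Gm12977 on the other strand.

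Of 15 tested genes of interferon and innate sensing, 2 passed, Nod2 and Bst2, both higher in KO, beside 0.374% of all tested genes. The median log2FC of the list was 0.22 at day 3 and 0.28 in MEFs, and 11 of the 15 were above 0 at day 3. Nod2, a cytosolic sensor of bacterial cell wall fragments (ENSMUSG00000055994, chr8:88647315-88688474, plus strand), had normalised counts of 26.6, 34 and 70.7 in Wt and 129, 216 and 191 in KO, with Wt replicate 3 the highest of the Wt libraries but still under KO replicate 1 (log2FC 2.03 ± 0.35 (SE), FDR = 8.95e-06). Bst2, an interferon-inducible membrane protein that tethers viruses, had 425, 467 and 443 in Wt and 605, 698 and 628 in KO (log2FC 0.53 ± 0.12 (SE), FDR = 0.0026). The Nod2 call held throughout, and that of Bst2 was lost without KO replicate 2 (FDR 0.133). The interferon-stimulated genes Ifit1, Ifit3, Isg15 and Rsad2 were too low to be tested. Snx20, a sorting nexin of leukocytes (ENSMUSG00000031662, chr8:88626563-88636128, minus strand), had 37.6, 32 and 43.6 in Wt and 162, 206 and 153 in KO. Every KO library was far above the highest Wt library (log2FC 2.20 ± 0.23 (SE), FDR = 5.04e-18), and the call held throughout.

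Suox, Frrs1, Aldh2, Smap1, Ubxn2a and Mvp were also higher. Suox, the mitochondrial sulfite oxidase, had 489.6, 413 and 432 in Wt and 865, 985 and 855 in KO (log2FC 1.02 ± 0.15 (SE), FDR = 2.80e-08). Frrs1, a ferric-chelate reductase, had 2705, 3177 and 2885 in Wt and 4574, 5176 and 4936 in KO (log2FC 0.74 ± 0.13 (SE), FDR = 6.04e-06). Aldh2, the mitochondrial aldehyde dehydrogenase, had 769, 674 and 776 in Wt and 1223, 1184 and 1173 in KO (log2FC 0.69 ± 0.12 (SE), FDR = 8.55e-06). Their groups were separated by wide gaps. Smap1, a GTPase-activating protein of endocytosis, had 1995, 1953 and 1992 in Wt and 2509, 2677 and 2624 in KO (log2FC 0.39 ± 0.07 (SE), FDR = 1.01e-05). Ubxn2a, an adaptor of the p97 segregase, had 1436, 1606 and 1485 in Wt and 1995, 2333 and 2398 in KO (log2FC 0.57 ± 0.11 (SE), FDR = 1.27e-04). Mvp, the major vault protein, had 727, 697 and 738 in Wt and 1077, 1107 and 1112 in KO (log2FC 0.61 ± 0.13 (SE), FDR = 0.0026). All 6 calls held without any single library. Exons of Aldh2, Smap1 and Klc3 overlap genes on the other strand, and those of Mvp overlap Pagr1b on the same strand. Rps4l, a paralogue of ribosomal protein S4, also rose (log2FC 0.51 ± 0.10 (SE), FDR = 1.27e-04), as did Rps4l-ps, a near-identical copy (log2FC 0.53 ± 0.13 (SE), FDR = 0.00723). Reads of the copies can be exchanged between them, so the pair counts as 1 uncertain observation. None of the values is adjusted for gene length.

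Several larger fold changes rested on fewer libraries. B3gnt3, a glycosyltransferase that extends O-glycans, had 168, 81 and 101 in Wt and 439, 381 and 371 in KO. All KO libraries exceeded all Wt libraries, but the spread shared with the other stages was large (log2FC 1.77 ± 0.43 (SE), FDR = 0.0102), and the call was lost without KO replicate 1, KO replicate 2, KO replicate 3, Wt replicate 2 or Wt replicate 3 (highest FDR 0.163). With the 6 day 3 libraries alone its FDR was 7.88e-16. Klc3, a kinesin light chain, had 1.83, 6 and 7.75 in Wt and 21.7, 30.5 and 17.5 in KO (log2FC 2.18 ± 0.47 (SE), FDR = 0.00208). AA467197, a small mitochondrial protein gene that hosts Mir147, had 10.1, 4 and 16.5 in Wt and 33.4, 49.3 and 44.7 in KO (log2FC 2.05 ± 0.45 (SE), FDR = 0.00249). Ehf, an ETS factor of epithelia, had 85.3, 81 and 101 in Wt and 133, 219 and 183 in KO (log2FC 1.00 ± 0.22 (SE), FDR = 0.00293). The calls of Klc3, AA467197 and Ehf were lost without KO replicate 2 or Wt replicate 1, without KO replicate 1, KO replicate 2 or Wt replicate 2, and without KO replicate 2, with FDR up to 0.0869, 0.0807 and 0.204. Slc13a4 and Slc28a1, transporters of sulfate and of nucleosides, Hsd17b14, a steroid dehydrogenase, and Gm4070 and Gvin1, near-identical interferon-inducible GTPase genes that share reads, completed the DEGs higher in KO, with log2FC of 1.02, 1.12, 1.25, 1.05 and 1.02. Each of these 5 was lost without KO replicate 2 and without at least 1 Wt library, with FDR up to 0.571. In the 6 libraries Slc13a4 was called without the block (FDR 0.0358) and not with it (FDR 0.0738), and Slc28a1 in neither fit (FDR 0.0793 and 0.104).

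The remaining small increases past the threshold each rested on a small margin. Xiap, an inhibitor of caspases, had normalised counts of 1114, 935 and 836 in Wt and 1554, 1334 and 1270.0 in KO (log2FC 0.53 ± 0.11 (SE), FDR = 0.00208). Gtsf1l, a homologue of a germline piRNA factor, had 55, 46 and 56.2 in Wt and 96.9, 91.4 and 113 in KO (log2FC 0.93 ± 0.21 (SE), FDR = 0.00372). Lgals7, an epithelial galectin, had 395, 355 and 366 in Wt and 547, 749 and 497 in KO (log2FC 0.68 ± 0.16 (SE), FDR = 0.00438). In these 3 genes every KO library lay above every Wt library. Znhit3 and Emg1, both needed for ribonucleoprotein or ribosome assembly, Mgme1, a mitochondrial exonuclease, Prps1l3, a phosphoribosyl pyrophosphate synthetase, and Bnip3l-ps, Wdtc1, Gramd2 and 2810025M15Rik had log2FC between 0.27 and 0.60, also without overlap. Each of these 11 calls was lost in at least 2 leave-one-out fits, with FDR up to 0.496, and each was lost without Wt replicate 2 or Wt replicate 3. Bnip3l-ps is annotated as a copy of Bnip3l, with which it may share reads. Exons of Mgme1, Znhit3, Emg1 and 2810025M15Rik overlap genes on the other strand.

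The genes that fell were fewer. Npr1, the receptor guanylyl cyclase for natriuretic peptides, had normalised counts of 529, 463 and 554 in Wt and 266, 351 and 342 in KO. KO replicate 1 was the lowest library and no KO library reached a Wt library (log2FC -0.69 ± 0.13 (SE), FDR = 4.68e-05). Nt5dc2, a protein with a 5'-nucleotidase domain, had 605, 743 and 915 in Wt and 304, 374 and 502 in KO. The groups did not overlap, and each KO library was far under its same-numbered Wt library (log2FC -0.94 ± 0.17 (SE), FDR = 5.89e-05). Slc2a6, a hexose transporter of lysosomes, had 812, 770.0 and 828 in Wt and 483, 424 and 507 in KO and tight groups (log2FC -0.77 ± 0.15 (SE), FDR = 2.28e-04). These were the 3 decreases that held without any single library. Exons of Npr1 and Nt5dc2 overlap the genes Gm16048 and Stab1 on the other strand.

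**Figure D2:**
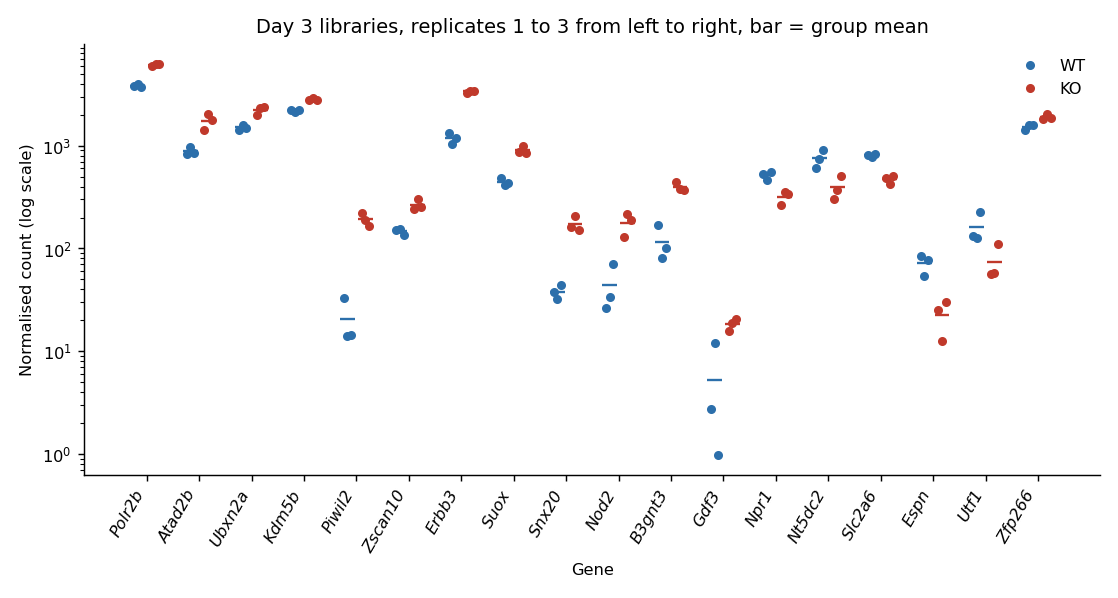
Normalised counts (y axis, log scale) of 18 named genes in the 3 Wt (blue) and 3 KO (red) day 3 libraries, drawn in replicate order, with a bar at each group mean. KO points lie above Wt points for every gene from Polr2b to Gdf3 and for Zfp266, and below them for Npr1, Nt5dc2, Slc2a6, Espn and Utf1.

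The other decreases past a log2FC of 1 were of low genes. Espn, an actin-bundling protein of microvilli and stereocilia, had 84.4, 54 and 76.6 in Wt and 25.1, 12.54 and 30.1 in KO (log2FC -1.67 ± 0.35 (SE), FDR = 0.00145). B3gnt5, which starts the lacto-series of glycolipids, had 71.5, 65 and 47.5 in Wt and 38.4, 26 and 25.3 in KO (log2FC -1.03 ± 0.22 (SE), FDR = 0.0018). Cpne7, a calcium-dependent phospholipid-binding protein, had 154, 139 and 232 in Wt and 66.8, 56.4 and 88.5 in KO (log2FC -1.31 ± 0.32 (SE), FDR = 0.0111). The groups of these genes did not overlap. Hrc, a calcium-binding protein of the sarcoplasmic reticulum, Sept5, a septin, and Emilin2, a glycoprotein of the extracellular matrix, had log2FC of -1.29, -1.24 and -1.04, with FDR of 0.0109, 0.0271 and 0.04. Each of these 6 calls was lost without KO replicate 2, with FDR up to 0.667 over the leave-one-out fits. Emilin2 was not called in the fit of the 6 libraries (FDR 0.219) and was called with the replicate block (FDR 1.76e-06). B3gnt5 was called in neither (FDR 0.0797 and 0.109).

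Among the small decreases, Tmem132a, a membrane protein of neural development, fell from a high level, at 3339, 3815 and 4285 in Wt and 2486, 2440.1 and 2969.8 in KO (log2FC -0.54 ± 0.12 (SE), FDR = 0.00431). Pycr1, which makes the last step of proline synthesis, had 312, 356 and 311 in Wt and 189.6, 159 and 165 in KO (log2FC -0.93 ± 0.25 (SE), FDR = 0.039). Prr5, a component of mTOR complex 2, had 799.5, 825 and 989 in Wt and 552, 533 and 658 in KO (log2FC -0.58 ± 0.14 (SE), FDR = 0.0147). Each gene had non-overlapping groups, and exons of Tmem132a overlap Slc15a3 on the other strand. Rnf144a, a ubiquitin ligase, Ptov1, Lzts2, Sh3rf3 and Gramd3 had log2FC between -0.54 and -0.34. Wfs1, a membrane protein of the endoplasmic reticulum, was the single called gene whose groups overlapped, at 482, 376 and 518 in Wt and 277, 273 and 379 in KO (log2FC -0.57 ± 0.15 (SE), FDR = 0.0271). All 9 of these calls were lost in at least 2 of the leave-one-out fits, always including the fits without KO replicate 1 or KO replicate 2, with FDR up to 0.614. Gramd3 was called in the 6 libraries without the replicate block (FDR 0.0458) and not with it (FDR 0.084).

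Some of the genes that rose lay next to each other. A start site of another up-regulated gene lay within 250 kb for 12 of the 60 up-regulated genes (20%) and for 468 of the 15965 other tested genes (2.93%). Within 100 kb the counts were 10 of 60 (16.7%) and 1.17%. None of the 19 down-regulated genes had another down-regulated gene within 250 kb, against 1.2% of other genes. The windows were chosen after such pairs had been seen, and no test was made. The pairs were Dusp27 with Gpa33, 2.32 kb apart, Ubxn2a with Atad2b, 9.65 kb, Snx20 with Nod2, 11.2 kb, Erbb3 with Suox, 84.4 kb, Spink2 with Polr2b, 98.7 kb, and Bst2 with B3gnt3, 164 kb. Their exons do not overlap, and pairs with overlapping exons were not counted. Spink2, a protease inhibitor, had 2549, 2337 and 2144 in Wt and 3116, 3176 and 2928 in KO (log2FC 0.39 ± 0.09 (SE), FDR = 0.00397), and its call was lost without KO replicate 1, KO replicate 2 or Wt replicate 3 (FDR up to 0.145). In the closest pair, Dusp27, an atypical phosphatase of muscle, had 81.6, 74 and 87.2 in Wt and 140.3, 159 and 149 in KO (log2FC 0.88 ± 0.20 (SE), FDR = 0.00379), and Gpa33, a surface antigen of intestinal epithelium, had 417, 514 and 477 in Wt and 696, 889.5 and 796 in KO (log2FC 0.76 ± 0.16 (SE), FDR = 0.00128). Both calls were lost without KO replicate 2, and that of Dusp27 also without Wt replicate 2 (FDR up to 0.0941).

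Some neighbours of up-regulated genes were also higher in KO, others were unchanged and some were lower. Next to Snx20 and Nod2, the deubiquitinase gene Cyld, 60.9 kb from Snx20, had 325, 248 and 305 in Wt and 465, 480.1 and 421 in KO. KO lay above Wt, the main test was missed (FDR 0.0583) and the gene was called in the 6 libraries without and with the replicate block (FDR = 2.23e-04, and log2FC 0.65 ± 0.15 (SE), FDR = 6.55e-04). Between Erbb3 and Suox, the lymphoid transcription factor gene Ikzf4 also missed the main test (log2FC 1.03, FDR = 0.0962) and was called in the 6 libraries without and with the block (FDR = 0.0383 and 0.0129), whereas the ribosomal protein gene Rps26 had a log2FC of 0.03. Noa1, whose start site lies 0.063 kb from that of Polr2b on the other strand, had a log2FC of 0.10 and did not pass, and Rest, 44.7 kb away, had -0.05. Hrc, which fell, lay 220 kb from Hsd17b14, which rose. Ildr2, 124 kb from Gpa33, and Dmtn, 207 kb from Piwil2, both had a log2FC of -0.56 and missed the main test. Both were called in the 6 libraries without the block (FDR = 2.21e-05 and 1.50e-04) and with it (FDR = 1.08e-05 and 4.58e-10). Over the 468 tested genes near an up-regulated gene and not themselves up-regulated, the median log2FC was 0.01 and 54.7% were above 0, against a share of 49.3% above 0 among the tested genes neither up-regulated nor near an up-regulated gene.

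**Figure D3:**
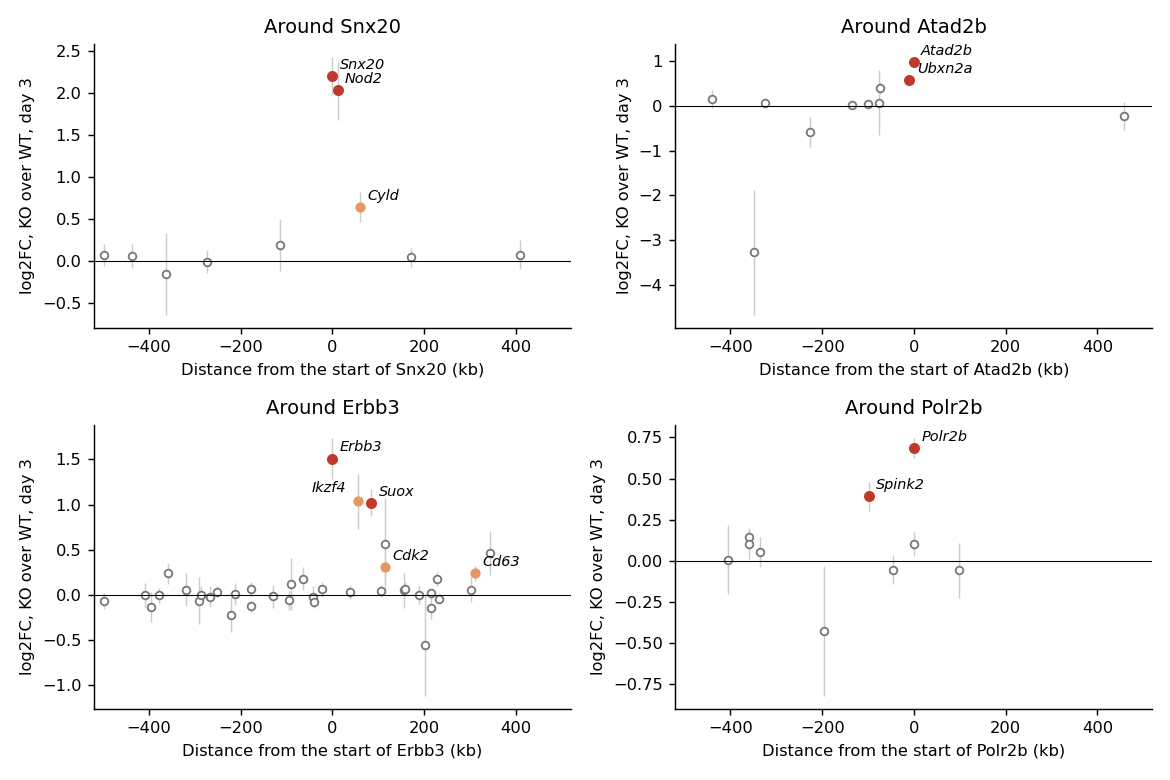
Log2 fold change of KO over Wt at day 3 (y axis, bars = 1 SE) against the distance of a gene's start site from that of Snx20, Atad2b, Erbb3 or Polr2b (x axis, kb) for all tested genes within 500 kb. Red points passed FDR 0.05 in the fit of 36 libraries, orange points not there but with the replicate block, and open points in neither. The red neighbours sit within 98.7 kb of the named gene, the orange Cdk2 and Cd63 lie further from Erbb3, and most other genes lie near 0.

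The sequences before the starts of Dusp27 and Gpa33, the closest pair, and of Atad2b and Nod2 are shown because the members of each pair rose together. Each holds the bases of the 250 before the RefSeq start (GRCm38.p6) that no annotated exon covers, 5' to 3' on the strand of the gene, with a match to the motif GGGNGTGG (bound by KLF-type factors, either strand) in capitals. Exons took 24 of these bases for Dusp27 and 32 for Nod2, which were left out. The sequences lie at chr1:166127923-166128148, minus strand (Dusp27), chr1:166129971-166130220, plus strand (Gpa33), chr12:4917103-4917352, plus strand (Atad2b) and chr8:88647097-88647314, plus strand (Nod2).
Dusp27: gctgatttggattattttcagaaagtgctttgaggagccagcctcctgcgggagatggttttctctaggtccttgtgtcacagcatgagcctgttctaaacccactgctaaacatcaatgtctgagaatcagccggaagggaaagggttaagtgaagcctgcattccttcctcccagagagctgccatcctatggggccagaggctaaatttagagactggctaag
Gpa33: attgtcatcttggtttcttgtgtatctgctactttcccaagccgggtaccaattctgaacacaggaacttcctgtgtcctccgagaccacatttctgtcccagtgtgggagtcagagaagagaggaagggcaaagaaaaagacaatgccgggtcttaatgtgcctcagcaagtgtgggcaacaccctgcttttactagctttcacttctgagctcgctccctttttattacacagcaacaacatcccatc
Atad2b: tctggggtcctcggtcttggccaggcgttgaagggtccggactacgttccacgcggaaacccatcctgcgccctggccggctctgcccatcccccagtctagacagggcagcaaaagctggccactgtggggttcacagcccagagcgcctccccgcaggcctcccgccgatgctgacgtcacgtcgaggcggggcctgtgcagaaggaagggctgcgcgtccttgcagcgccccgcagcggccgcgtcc
Nod2: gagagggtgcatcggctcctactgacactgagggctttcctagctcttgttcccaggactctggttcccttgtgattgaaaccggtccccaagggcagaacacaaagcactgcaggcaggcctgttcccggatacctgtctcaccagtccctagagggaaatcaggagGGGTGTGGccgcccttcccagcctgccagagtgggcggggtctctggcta
The Nod2 sequence holds 1 such match and the other 3 hold none. The motif occurred in 15.9% of 32851 mouse promoter sequences of this length. It was present in 13.6% of the 59 promoters of 41 up-regulated genes and in 33.3% of the 21 promoters of 14 down-regulated genes. The octamer ATGCAAAT, a motif of OCT factors, was found in 1 of the 59 (1.69%) against 1.6% of all promoters, and in none of the 21. The AP-1 motif TGANTCA was found in 3 of the 59 (5.08%) against 6.75%, and in none of the 21. None of the 3 motifs contains another, all were searched on both strands, and 55 of the 79 genes had a promoter in the table. A match is a run of letters and not a measured binding site.

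Cell cycle genes had small positive log2FC in most cases. Of 25 genes tested, 22 had a log2FC above 0, against 49.7% of all tested genes. The KO libraries lay above the Wt libraries for 14 and below for 2, and the median was 0.14, against 7.87%, 8.29% and 0.00 over all tested genes. A lean above 0 was not particular to this list. It was also seen in 22 of 25 pluripotency and 22 of 29 mesenchymal genes (mesenchymal median 0.15). The same held for 18 of 21 genes of the KRAB corepressor machinery and 9 of 11 of the Polycomb complex PRC2. By contrast, 14 of 26 epithelial, 10 of 22 p53 and senescence and 1 of 8 AP-1 genes were above 0. Of the cell cycle list, a single gene passed in the main test and 0 by edgeR with all libraries, and 8 had an unadjusted p below 0.05. Ccnb2, a mitotic cyclin, had 568, 623 and 552 in Wt and 739.9, 785 and 741 in KO (log2FC 0.38 ± 0.09 (SE), FDR = 0.00424), and the call was lost without KO replicate 2 or Wt replicate 3 (FDR up to 0.13). In the 6 libraries 3 genes of the list passed without the block, and with it 9 were higher and 0 lower. Top2a, the topoisomerase of dividing cells, had 7279, 7597 and 6960.5 in Wt and 8733, 8565 and 8346 in KO and no overlap between groups (log2FC 0.24, FDR = 6.17e-06 with the block, FDR = 0.00318 in the 6 libraries without it and FDR = 0.219 in the main test). Mki67, the proliferation marker, had 4390.1, 4752 and 4404 in Wt and 5565, 5344 and 4939 in KO (log2FC 0.23, FDR = 0.00102 with the block). Rrm2, a subunit of ribonucleotide reductase, had 5749, 5828 and 5114 in Wt and 6470.1, 6404 and 6254 in KO (log2FC 0.20, FDR = 0.00144). Ccna2, Ccnb1, Cdk1, Mcm2 and Mcm4 had block log2FC between 0.17 and 0.22. In MEFs, from other libraries, the median of the same list was -0.21 and none passed, and at day 5 it was 0.41 with 14 genes higher.

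**Figure D4:**
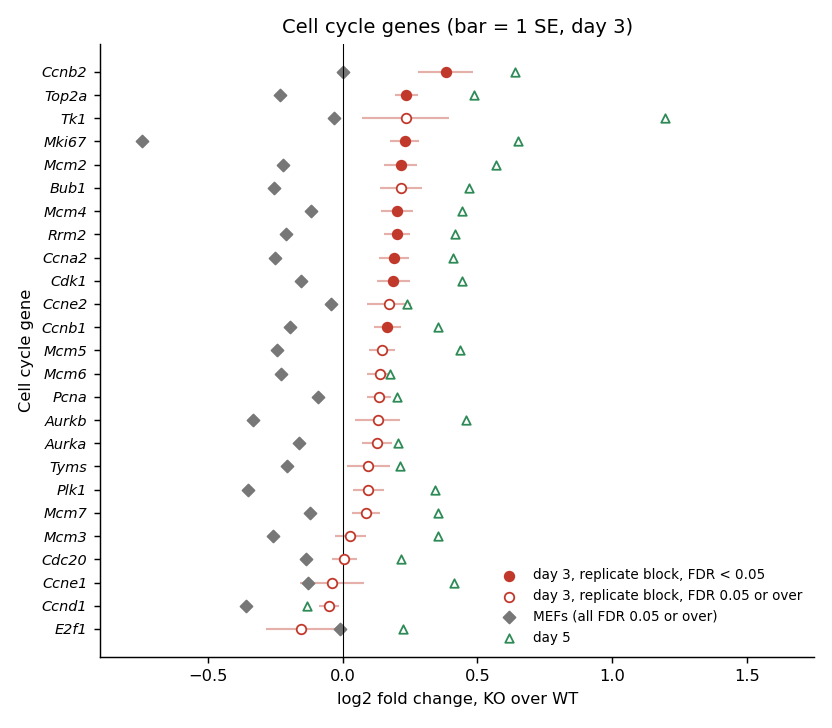
Log2 fold change of KO over Wt (x axis, linear) for 25 cell cycle genes (y axis), with day 3 values of the replicate-block fit as circles (bars = 1 SE, filled where FDR < 0.05), MEF values as grey diamonds and day 5 values as open triangles. Day 3 values of 22 genes lie above 0, between MEF values mostly below 0 and mostly larger day 5 values.

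Outside that list, Nusap1, Haus6, Misp, Chek1, Cdc14a, Nek6, Top1 and Map4, most of them known from mitosis or DNA replication, were also higher. Nusap1, which bundles spindle microtubules, had 1651, 1835 and 1528 in Wt and 2289.8, 2149.9 and 2031 in KO (log2FC 0.37 ± 0.08 (SE), FDR = 0.00387), and Haus6, a subunit of the augmin complex, had 1682, 1729 and 1624 in Wt and 2053, 2064 and 2045 in KO (log2FC 0.29 ± 0.05 (SE), FDR = 5.51e-05). Haus6 held without any single library. Nusap1, whose exons overlap Oip5 on the other strand, was lost without KO replicate 1, KO replicate 2 or Wt replicate 3 (FDR up to 0.158). Misp, an actin-binding protein of spindle positioning, had 283, 224 and 217 in Wt and 387, 385 and 353 in KO and held throughout (log2FC 0.63 ± 0.12 (SE), FDR = 2.37e-04). Smaller shifts past the threshold were those of the checkpoint kinase gene Chek1 (log2FC 0.29), the phosphatase gene Cdc14a (0.44), the kinase gene Nek6 (0.48), the topoisomerase gene Top1 (0.23) and the microtubule-associated protein gene Map4 (0.27). Each of these 5 was lost without KO replicate 2 and at least 1 Wt library, with FDR up to 0.566, and Chek1 was called in the 6 libraries neither without nor with the replicate block (FDR 0.0848 and 0.0778). The smallest shift to pass was that of Metap2, a methionine aminopeptidase, at 10334, 11098 and 10870.1 in Wt and 11833, 11734 and 12552 in KO (log2FC 0.16 ± 0.04 (SE), FDR = 0.049). Its groups did not overlap, and its call was lost without KO replicate 1, KO replicate 2, KO replicate 3, Wt replicate 1 or Wt replicate 3 (FDR up to 0.427).

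Epithelial and mesenchymal genes gave no call in the main test. In the DESeq2 fit of all libraries 0 of 26 epithelial and 0 of 29 mesenchymal genes passed. At an unadjusted p below 0.05 there were 3 and 2 of them, against 1206 of the 16031 genes tested. The edgeR test of all libraries called none, whereas with the 6 day 3 libraries DESeq2 called 2 mesenchymal genes and edgeR 1. The median log2FC was 0.02 for the epithelial list, with KO below Wt throughout in 1 gene (3.85%). It was 0.15 for the mesenchymal list, with KO above Wt throughout in 3 (10.3%). Over all tested genes KO lay above Wt in 7.87% and below in 8.29%. Cdh1, the epithelial cadherin, had 7107, 5744 and 6709 in Wt and 7334, 6631 and 7356 in KO, and Epcam, another epithelial adhesion molecule, 941, 627 and 622 in Wt and 1068, 799.9 and 726 in KO. Both overlapped between groups. Col1a1, the fibroblast collagen, had 16393, 12199 and 16904 in Wt and 15049, 17726 and 14193 in KO, also with overlap. In the fit with the block, the epithelial genes Cldn3, Lsr and St14 and the mesenchymal gene Dcn were lower in KO and the mesenchymal genes Vim and Col6a1 higher. Cldn3, a claudin of tight junctions, had 1379.9, 1744 and 2307 in Wt and 697, 997 and 1203 in KO. Every KO library was below every Wt library, libraries of the same number were low or high together, and the gene was called with the block (log2FC -0.91, FDR = 1.84e-28) but neither in the same libraries without it (FDR = 0.0923) nor in the main test (FDR = 0.339).

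Counts of the reprogramming factors, which sum transgene and endogenous reads, did not pass in the main test. Sox2 had 23821, 23506 and 24746 in Wt and 21968, 19723 and 21459 in KO and Klf4 35784, 36192 and 37737 in Wt and 34863, 32333 and 33514 in KO. KO lay below Wt for Sox2, Klf4 and Myc, with log2FC of -0.19, -0.12 and -0.10. None passed by edgeR with all libraries either, and 0 had an unadjusted p below 0.05. Sox2 passed by DESeq2 in the 6 libraries without the block (FDR = 0.0428). Sox2 and Klf4 passed with the block (FDR = 1.46e-04 and 0.0469), Klf4 by DESeq2 but not by edgeR (FDR = 0.0946). The part of the factor levels in the other shifts was not tested. Of the AP-1 family of transcription factors 0 of 8 tested genes passed in the main test or by edgeR with all libraries, and 0 had an unadjusted p below 0.05. With the 6 libraries 1 (Jund, lower) passed. The median log2FC was -0.23 at day 3 and -0.22 in MEFs. With the block, Jun, Jund and Fos were lower (log2FC -0.35, FDR = 5.00e-04, log2FC -0.26, FDR = 0.00228, and log2FC -0.49, FDR = 0.00915) and Fosl1 higher (log2FC 0.30, FDR = 0.0112). Fos varied more between replicate numbers than between groups, at 744, 301 and 513 in Wt and 513, 253 and 324 in KO. Among 15 immediate early genes, a list that contains AP-1 members, 0 passed in the main test, by edgeR with all libraries, with the 6 libraries or at an unadjusted p below 0.05, and 3 were lower with the block. Their median log2FC was -0.18 both at day 3 and in MEFs.

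The other lists gave no call in the main test or by edgeR with all libraries. Of 22 p53 and senescence genes 0 passed and 0 had an unadjusted p below 0.05, with a median of -0.03, and with the block Cdkn1a, the p21 inhibitor of cyclin-dependent kinases, was lower (log2FC -0.15, FDR = 0.00788). It had 18494, 17720.1 and 19623 in Wt and 16136, 16884 and 17262 in KO, with KO below Wt throughout. Phlda3 was also lower with the block and Ei24 higher. Of 21 genes of the KRAB corepressor machinery 0 passed (3 at an unadjusted p below 0.05), with a median of 0.08. With the block the heterochromatin protein gene Cbx3 was higher and the remodeller gene Chd3 lower. Chd3 was also called in the 6 libraries without the block (FDR = 0.0139). Of 11 genes of the Polycomb complex PRC2 0 passed (2 at an unadjusted p below 0.05), with a median of 0.07. KO lay above Wt in 4 of the 11 (36.4%), against 7.87% of all tested genes. Suz12, a core subunit, had 1478, 1594 and 1387 in Wt and 1724, 1763 and 1707 in KO and passed with the block (log2FC 0.23, FDR = 0.0407). Of 5 sex chromosome genes 0 passed (1 at an unadjusted p below 0.05). Uty passed in the 6 libraries without the block (FDR = 0.00997) and with it (log2FC 0.38, FDR = 0.0121).

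Small decreases outnumbered small increases in the 6 libraries by DESeq2, with 153 lower and 125 higher without the replicate block and 219 lower and 171 higher with it. Genes called by both DESeq2 and edgeR with the block numbered 211 higher (1.54%) and 341 lower (2.5%) in KO. The following examples were chosen after their values had been seen. Lgr6, a receptor for R-spondins, had 5588, 6863 and 9075 in Wt and 3845, 5548 and 6788 in KO, so that its groups overlapped, while each KO library was below its same-numbered Wt library (log2FC -0.42 ± 0.05 (SE), FDR = 1.84e-13). Celsr1, a cadherin of planar cell polarity, had 6007, 6733 and 7188 in Wt and 4722, 5116 and 5452 in KO (log2FC -0.38 ± 0.04 (SE), FDR = 4.09e-14). Dchs1, a protocadherin of the same process, had 3752, 3709 and 4287 in Wt and 2802, 2697 and 3257 in KO (log2FC -0.42 ± 0.05 (SE), FDR = 7.31e-13). For Celsr1 and Dchs1 the groups did not overlap. Fgf3, a fibroblast growth factor, had 952, 905 and 1239.6 in Wt and 496, 508 and 714 in KO (log2FC -0.85 ± 0.10 (SE), FDR = 3.62e-16). Col2a1, the cartilage collagen, had 1205, 1786 and 2427 in Wt and 886, 1203 and 1484 in KO and overlapping groups (log2FC -0.57 ± 0.08 (SE), FDR = 1.15e-10). In the fit of all 36 libraries these 5 genes had FDR between 0.18 and 1. Among genes that were higher, Eif4e1b, an oocyte form of the cap-binding protein, had 12.8, 43 and 56.2 in Wt and 119, 269 and 288 in KO (log2FC 2.67 ± 0.27 (SE), FDR = 1.57e-20), Lrrk2, a large kinase, had 1244, 1300.1 and 1354 in Wt and 2013, 2060.3 and 2024 in KO (log2FC 0.65 ± 0.07 (SE), FDR = 2.04e-17), and Aldh3a1, an aldehyde dehydrogenase, had 2254, 2635 and 2223 in Wt and 3119.8, 3804 and 3403 in KO (log2FC 0.54 ± 0.06 (SE), FDR = 5.28e-18). All 3 had groups that did not overlap, and FDR of 0.0783, 0.159 and 0.5 in the main test.

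To ask which effects depended on reprogramming, the KO effect at day 3 was compared with that in MEFs by an interaction contrast. MEF libraries came from the same kind of cells, collected 96 h after transduction without factor induction and unsorted. The study describes no wild-type MEFs mixed in for them, unlike at day 3. Factor expression, culture medium, wild-type MEFs in the culture and sorting therefore differ together between the stages and cannot be told apart. The KO effect differed for 28 of 16447 genes (0.17%), being more positive at day 3 in 21. Of the 28, 12 passed at day 3 and 6 in MEFs, and for 23 the signs were opposite. In MEFs alone 9 genes were higher (0.0645%) and 3 lower (0.0215%) in KO. Snx20 had the lowest FDR of the difference (2.79 ± 0.36 (SE), FDR = 8.17e-11). Its normalised counts were 36.5, 51.5 and 56.2 in Wt MEFs and 33.3, 39.7 and 24.4 in KO MEFs, so that the MEF groups overlapped where the day 3 groups were far apart. The difference also passed for Polr2b (0.49 ± 0.09 (SE), FDR = 3.91e-05), which had 3004, 3003 and 2976 in Wt MEFs and 3432, 3464 and 3371 in KO MEFs. In MEFs the KO libraries of Polr2b also lay above the Wt libraries, by less (log2FC 0.19, FDR = 0.256). The difference passed too for Atad2b (0.94 ± 0.17 (SE), FDR = 1.11e-04) and Erbb3 (1.73 ± 0.38 (SE), FDR = 0.00765). Erbb3 had 52.2, 59.1 and 36.1 in Wt MEFs and 40.2, 46.9 and 37.1 in KO MEFs, so that its counts in MEFs were far under those of either group at day 3 and its MEF groups overlapped.

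Rps6ka1, Klc3, Aldh2, Smap1, Nusap1 and Haus6 rose at day 3 with MEF log2FC between -0.15 and 0.01, and the difference passed for each. Nt5dc2 (-0.96 ± 0.24 (SE), FDR = 0.0428) and B3gnt5 (-1.13 ± 0.27 (SE), FDR = 0.0268) differed in the other direction. A second set combined small positive effects at day 3 with negative ones in MEFs. It included Gas2l3, Kif18a, Kif11, Prc1, Top2a, Cdca7, Rad54l, Ung, Lmnb1 and Arhgef39, which all had negative MEF log2FC, from -0.85 to -0.21 and day 3 log2FC from 0.13 to 0.38. Top2a had 6445, 6436 and 6636 in Wt MEFs and 6267, 5688 and 4664 in KO MEFs, with KO below Wt throughout and KO replicate 3 the lowest. None of these 10 passed at day 3 itself. Klhl42, Rab30, Fgfbp3 and Cstb were changed in MEFs and not at day 3, with log2FC of 1.17, 1.5, 1.34 and 0.66 in MEFs and 0.04, 0.04, -0.20 and -0.11 at day 3. In the 12 libraries of both stages the difference passed for 12 of the 28 without the replicate block. With it the difference passed for Snx20, Polr2b, Atad2b, Erbb3, Nt5dc2, Klhl42, Rab30, Fgfbp3 and Cstb, and for none of the other 19. The count of differing genes fell to 10 with the replicate block and to 7 with edgeR. It rose to 66 without MEF KO replicate 1 and ranged from 12 to 40 without 1 of the other 11 libraries. The number of calls thus moved most without MEF KO replicate 1, but that fit kept 25 of the 28 calls. Without MEF KO replicate 3 the count was 20, and 13 of the 28 calls were kept. Without MEF Wt replicate 2, 11 of the 28 were kept. The count was 14 without day 3 KO replicate 2, 16 without day 3 Wt replicate 1, 18 without day 3 KO replicate 1 and 13 without day 3 Wt replicate 3, and 17, 12 and 13 without MEF Wt replicates 1, 2 and 3.

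Most day 3 effects were seen again at day 5, in other libraries of the same fit. Whether they came from the same transductions as the day 3 libraries is not stated. Of the 60 genes higher at day 3, 57 were higher at day 5 and 52 passed there, against 4.72% of all genes tested at day 5. Of the 19 lower genes, all 19 were lower and 12 passed (2.43% of all genes). None of the 79 passed in the opposite direction. Over the genes tested at day 3, 47.7% had a positive and 52.0% a negative log2FC at day 5. Examples were Piwil2 (log2FC 3.04, FDR = 3.26e-32), Polr2b (log2FC 0.82, FDR = 1.41e-38), Snx20 (log2FC 2.42, FDR = 1.91e-29) and Aldh2 (log2FC 1.32, FDR = 2.11e-25). Dppa5a, uncertain at day 3, had normalised counts of 0, 5.16 and 2.08 in Wt and 79.2, 183 and 106 in KO at day 5 (log2FC 5.69, FDR = 7.73e-11). By contrast, in MEFs 38 of the 60 and 13 of the 19 had the same sign, against 46.8% and 52.1% of the genes tested at day 3, and 0 of the 79 passed by DESeq2 with all libraries or with the MEF libraries alone. At an unadjusted p below 0.05 there were 12 of the 79 in MEFs. Piwil2 had 0, 0 and 0 in Wt MEFs and 3.45, 0 and 4.24 in KO MEFs, at or near the floor throughout, so no fold is given for MEFs.

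**Figure D5:**
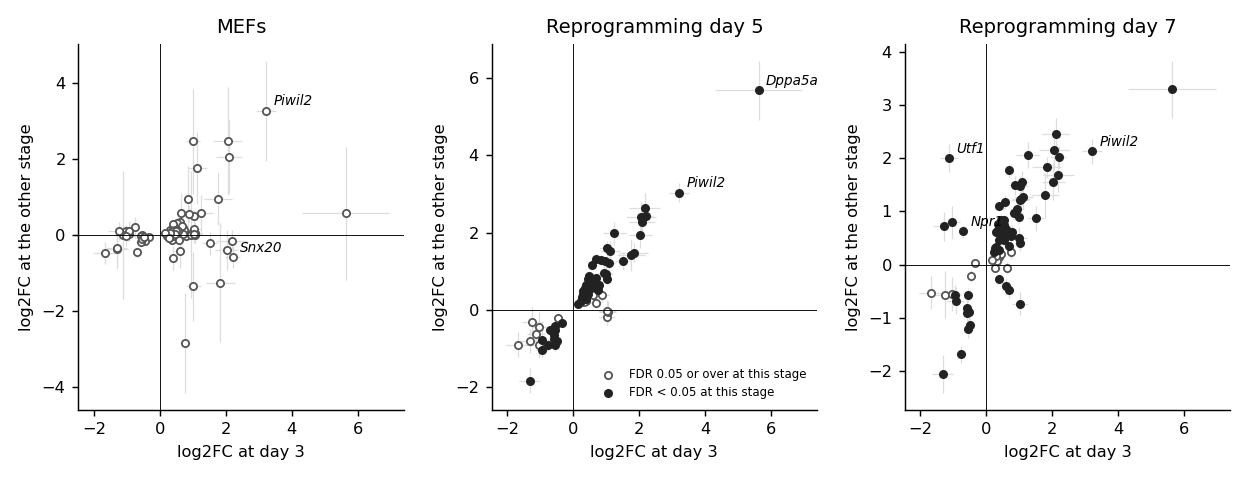
Log2 fold changes at day 3 (x axes) against those in MEFs, at day 5 and at day 7 (y axes, each on its own linear scale) for the 79 genes past FDR at day 3, with bars of 1 SE. Points are filled where the gene also passed FDR 0.05 at the other stage. In MEFs no point is filled and most lie near 0 (the value of Piwil2 there rests on counts at or near the floor), at day 5 the points follow the day 3 direction except for 3, and at day 7 Utf1 and Npr1 are among the genes that changed sign.

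By day 7 some effects had turned. Of the 60 higher genes 54 were higher and 48 passed (13.1% of all genes), while 4 passed as lower. Of the 19 lower genes 14 were lower and 10 passed (15.7%), while 4 passed as higher. Of the genes tested at day 3, 45.0% were higher and 55.0% lower at day 7. Utf1 went from a log2FC of -1.12 at day 3 to one of 2.0 (FDR = 3.68e-13) at day 7. Npr1 went from -0.69 to 0.62 (FDR = 2.72e-06). Hrc and B3gnt5 were the other 2 that turned from lower to higher. In iPS cells 35 of the 60 had the same sign and 14 passed (9.72%), and in ESCs 36 and 11 (5.69%). Of the 19 lower genes 13 had the same sign in iPS cells and 4 passed (6.63%), and in ESCs 15 and 2 (4.17%). Of the genes called with the block by both tools, 97.2% of 211 higher genes were higher at day 5, 78.2% at day 7, 61.6% in iPS cells and 63.0% in ESCs. Over the genes tested with the block, the shares higher at these stages were 47.4%, 42.2%, 50.5% and 49.5%. Of 341 lower genes 93.5% were lower at day 5 and 89.7% at day 7, but 57.2% in ESCs and 45.7% in iPS cells, where 36 passed as higher and 33 as lower. In MEFs 76.5% of the 341 were lower, where 52.4% of the genes tested with the block were lower.

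The genes that were higher in KO were mostly ones that rise in Wt cells. Along the Wt course from MEFs to day 5, in libraries that are not of day 3 but shared the fit, 42 of the 60 rose (70.0%), against 40.1% of all genes tested at day 3, and 14 fell. From MEFs to ESCs 42 also rose, against 42.1%. Of the 19 lower genes 11 fell to day 5 (57.9%, against 39.7%) and 13 fell to ESCs (68.4%, against 43.4%). Among genes higher in KO, Erbb3 rose in Wt cells by a log2FC of 5.58 from MEFs to day 5, and Piwil2 went from no read in any Wt MEF library to 195, 251 and 210.3 normalised counts. Exceptions were Aldh2, higher in KO although Wt cells fell by 3.35 on the log2 scale from MEFs to day 5, and Slc2a6, lower in KO although Wt cells rose by 4.90. The 341 genes lower with the block differed by course: 174 rose to day 5 (51.0%, against 44.1% of the genes tested with the block), and 224 fell to ESCs (65.7%, against 44.6%).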

How the data were processed

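Stranded mRNA libraries (NEBNext Ultra II) of the 6 day 3 samples, and of the 30 other samples that shared the fit, had been sequenced on a NextSeq with 75-base single-end reads. The authors trimmed adapters with cutadapt, checked quality with FastQC, mapped reads with STAR to GRCm38.p6 and counted them per gene with Rsubread, and the deposited table of raw counts was used. Versions, annotation release and strand setting are not given in the sources used here. The study names library preparation date as a batch, but the labels do not give it, so no batch term could be fitted. The authors' normalised and log counts, and the fold changes and p-values of their DESeq2 comparisons, were not used.

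The main test was the DESeq2 1.42.0 Wald test (R 4.3.3) on 12 groups of stage and genotype, with median-ratio size factors, unshrunken fold changes and Benjamini-Hochberg adjustment. Genes without an FDR after independent filtering counted as not tested. Alternatives were edgeR 4.0.16 (quasi-likelihood), TMM factors, a minimum mean of 10 counts, no independent filtering, fits of the day 3 libraries alone (or with the MEF libraries for the difference between stages), a replicate block and each library left out. The edgeR fits of the 6 day 3 libraries were chosen after seeing the data. Tests were also run on simulated counts with known changes, drawn without any deviation shared by same-numbered libraries. That run therefore cannot decide between the fits with and without the replicate block. pandas 2.3.3, scipy 1.17.1 and matplotlib 3.10.9 served tables and plots.

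Same-numbered Wt and KO libraries deviated together from their group means, with correlations of 0.41, 0.12 and 0.24 for replicates 1 to 3 over 16687 genes with a mean of at least 10, and each library correlated best with its own number. The numbers come from the labels, which do not say what they mark. No pair of libraries agreed within counting noise, so none was counted once. Wt replicate 2 stood apart, with a variance over counting noise of 47.6 and 38.0 against Wt replicates 1 and 3. In the other pairs of a group it was 5.66 to 10.1.

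Members and lists were chosen with earlier results of these data known. Genes named were Zfp266, DEGs, the 12 small shifts of lowest FDR in each direction, genes whose effect differed between stages, genes the study names, list members past FDR and neighbours within 500 kb of leading genes. Other small shifts, and the examples that only the replicate block called, were named after their values had been seen. Gene positions are those of GRCm38.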

Additional observations from a re-analysis of the deposited data

Results flagged for a closer look

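The effect of the knockout differed between day 3 and MEFs, by the interaction contrast at FDR 0.05, for 28 genes, and all values that follow are the log2FC at day 3 minus that in MEFs. Genes of mitosis and the spindle gave 0.84 for Gas2l3, 0.71 for Kif18a, 0.49 for Kif11, 0.43 for Prc1, 0.46 for Top2a, 0.50 for Nusap1, 0.33 for Haus6 and 1.01 for Arhgef39, with log2FC of 0.17 to 0.38 at day 3 and -0.85 to -0.04 in MEFs. Genes of DNA replication, repair and the nuclear lamina gave 0.53 for Cdca7, 0.59 for Rad54l, 0.55 for Ung and 0.48 for Lmnb1, with log2FC of 0.13 to 0.23 at day 3 and -0.44 to -0.25 in MEFs. Other genes that were more positive at day 3 gave 2.79 for Snx20, 0.49 for Polr2b, 0.94 for Atad2b, 1.73 for Erbb3, 0.80 for Rps6ka1, 2.33 for Klc3, 0.68 for Aldh2 and 0.40 for Smap1. Lrmp gave 6.46, but its normalised counts were 0.917, 0 and 0 in Wt and 5.01, 7.17 and 6.81 in KO at day 3 and 3.48, 7.57 and 12.7 in Wt MEFs and 2.30, 3.06 and 0 in KO MEFs, so most of its libraries were near the floor of 3 reads.

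Genes whose effect was more negative at day 3 gave -1.13 for Klhl42, -1.47 for Rab30, -1.54 for Fgfbp3, -0.68 for Hs3st3a1, -1.13 for B3gnt5, -0.77 for Cstb and -0.96 for Nt5dc2. Of these, Klhl42, Rab30, Fgfbp3 and Cstb passed the test as higher in KO in MEFs and did not pass at day 3. Nt5dc2 and B3gnt5 passed as lower in KO at day 3 and not in MEFs, and Hs3st3a1, a heparan sulfate sulfotransferase, passed at neither stage. KO replicate 3 of the MEFs was the lowest library for Top2a, at 4664 normalised counts against 6267 and 5688 in the other KO MEF libraries. The part of the MEF libraries, of the factors, of the medium, of the wild-type MEFs in the day 3 cultures and of sorting in these differences was not tested.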

How the results depend on the processing

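The main counts were 79 genes past FDR, 26 DEGs (73.1% of them higher in KO), 52 small consistent shifts and 28 genes that differed from MEFs. The cause of the changes that follow was not tested. With edgeR they were 30, 11 (90.9% higher), 19 and 7. In the fit of the 6 day 3 libraries, 311 genes passed and 278 were small consistent shifts. With the replicate block, 556 passed, 390 were small consistent shifts and 10 differed from MEFs. In the edgeR fits added after seeing the data, 52 genes passed and 11 were DEGs (90.9% higher) with the 6 libraries, and 1240 passed, 52 were DEGs and 816 were small shifts with the replicate block as well. Leaving out 1 library at a time gave 31 to 83 genes past FDR, 8 to 34 DEGs (41.2% to 100% higher in KO), 23 to 52 small shifts and 12 to 66 genes that differed from MEFs. TMM factors, a minimum mean of 10 counts and no independent filtering kept all 5 values within 1.5 times the main ones. Of the genes named, no log2FC changed sign among those called. Against the main test, the 6 libraries with the replicate block lost 4 of the day 3 calls named by rule (B3gnt5, Slc13a4, Slc28a1 and Gramd3), gained 4 (Prc1, Top2a, Lmnb1 and Kif11) and left 54 on the same side. Without the block, the same libraries lost B3gnt5, Slc28a1 and Emilin2 and gained Prc1, Top2a and Lmnb1, so between these fits of the 6 libraries the calls that differ are Slc13a4 and Gramd3, lost with the block, and Kif11 and Emilin2, gained with it. The call of Chek1 was lost in both. For the difference from MEFs, 9 calls were kept and 19 lost with the block, and 12 were kept in the same 12 libraries without it. Leaving out KO replicate 2 ended the most calls of named genes (28), and leaving out Wt replicate 1 the fewest (11). Depth limited genes near the floor of 3 reads, such as Dppa5a, Nanog, Dppa2 and Tcl1.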
